A study of Gallus gallus with 48 samples.

Results

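UCP and CPT-1 are 2 of the 20 genes of a small oligonucleotide panel that was hybridised with liver RNA of growing chickens. Both were taken by the probe names of the processed log2 table that the authors deposited. Earlier results of these data were known by then, among them that the values of both genes differ between dye labels. Livers came from male Beijing-You chickens, an indigenous breed, at 6, 8, 10 and 12 weeks of age, with 12 samples per age and 48 in all. At every age 6 samples were labelled with the fluorescent dye Cy5 and 6 with Cy3, and every labelled sample had a sub-array to itself. No treatment or genotype separated the groups. UCP had a deposited value in 47 of the 48 samples and CPT-1 in 40, and 39 samples had a value of both genes. The labels list the samples of an age as biological replicates except samples 5 and 8 of 8 weeks, which a deposited note names as technical replicates of 1 labelled extract. Their labels name different dyes, Cy5 for sample 5 and Cy3 for sample 8, so the note and the labels do not go together. On the note alone the pair was averaged in the fits over both dyes, where for UCP that unit stood midway between the dyes. Sample 5 had no CPT-1 value, so for CPT-1 the unit was sample 8 alone, with Cy3. The pair was kept as 2 samples in the fits within dyes and in the slope difference between dyes. A second deposited table, of intensities, holds the scanner data of other samples in its columns for samples 4, 5 and 6 of 6 weeks, so results were also computed without samples 3 to 6 of that age.

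Both genes act at the mitochondrion. UCP is an uncoupling protein, a carrier of the inner mitochondrial membrane; birds carry a single such gene, related most closely to mammalian UCP2 and UCP3, and it has been studied mostly in skeletal muscle. CPT-1 is carnitine palmitoyltransferase 1 of the outer mitochondrial membrane, which joins long-chain fatty acids to carnitine and so controls their entry into the mitochondrion for oxidation. Malonyl-CoA, the product of acetyl-CoA carboxylase (ACC), inhibits it, so that fatty acid synthesis and oxidation do not run together. In the RefSeq gene table the name UCP belongs to UCP3 and the name CPT1 to CPT1A, the form of liver. The files do not say which isoform the CPT-1 probe targets.

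UCP was the brightest gene of the panel by median value, and CPT-1 stood near the middle. The deposited log2 values of UCP ran from 8.75 to 14.15 with a median of 11.82, the highest median of the 20 genes. Those of CPT-1 ran from 5.51 to 13.11 with a median of 9.52, which ranked 12 among the 20. Levels of different probes depend on the probe as well as on the RNA, so the ranks describe signal and not transcript number. In the scanner files a gene counted as above local background where the mean of its 2 spots lay more than 2 background SD over the local background. UCP was above background in 35 samples and CPT-1 in 17. The 2 spots of a sample differed by a median of 0.20 log2 units for UCP and 0.25 for CPT-1, and by up to 2.32 and 2.70. From the root mean square of these differences, the technical SD of a mean of 2 spots was 0.32 and 0.42. Only samples with both spots above 0 entered, 48 for UCP and 39 for CPT-1. On the same background-subtracted scale, the SD over samples of both dyes was 1.95 for UCP and 1.26 for CPT-1. Among Cy5 samples it was 1.25 for UCP and 1.17 for CPT-1, and among Cy3 samples 1.96 and 1.05. The 2 spots lie on 1 sub-array, so their technical SD holds no difference in labelling or hybridisation between samples.

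No difference between ages was detected for either gene, and the values of an age spread widely. At 6 weeks UCP had a lowest value of 9.90, a median of 12.20 and a highest of 13.64. At 8 weeks its values were 8.75, 12.04 and 13.13 in the same order, at 10 weeks 10.50, 11.78 and 14.15, and at 12 weeks 9.60, 11.11 and 12.83. Values from 10.50 to 12.83 lay within all 4 ranges. UCP averaged 11.69 ± 1.41 (SD, n = 11) at 6 weeks, 11.66 ± 1.30 at 8 weeks, 12.05 ± 1.14 at 10 weeks and 11.27 ± 1.25 at 12 weeks (n = 12 each).

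For CPT-1 the lowest, median and highest values were 5.51, 9.52 and 12.17 at 6 weeks and 5.94, 10.42 and 12.96 at 8 weeks. They were 8.37, 10.04 and 11.57 at 10 weeks and 5.87, 8.01 and 13.11 at 12 weeks. The 12-week samples included both the highest CPT-1 value of the series and several of the lowest. CPT-1 averaged 9.59 ± 2.27 (SD, n = 10) at 6 weeks, 10.36 ± 2.14 (n = 9) at 8 weeks, 9.98 ± 1.08 (n = 9) at 10 weeks and 8.69 ± 2.29 (n = 12) at 12 weeks. Samples without a CPT-1 value numbered 2, 3, 3 and 0 from 6 to 12 weeks, and a permutation test of these counts over the ages gave an adjusted p of 1.0, with 0.0% of the 20 genes called.

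**Figure D1:**
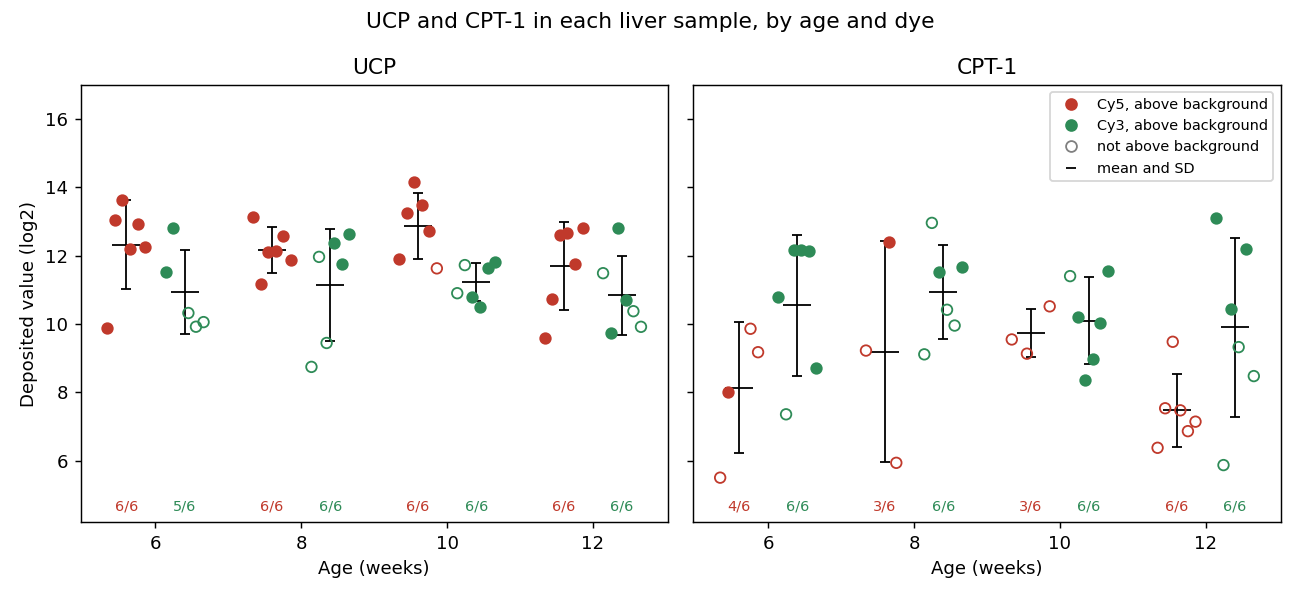
Deposited log2 values of UCP (left) and CPT-1 (right) in every liver sample at 6, 8, 10 and 12 weeks, Cy5 samples left of Cy3 samples within an age. Filled points were above local background in the scanner file, open points were not, black marks are the mean and SD, and the fractions give samples with a value of 6; UCP is higher with Cy5 and CPT-1 lower at every age, and few Cy5 points of CPT-1 are filled.

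Fits with age and dye as terms (limma's moderated tests, Benjamini-Hochberg adjustment over the panel, threshold 0.05) called neither gene for age. The F test over the 4 ages gave an adjusted p of 0.832 for UCP and 0.569 for CPT-1, and 0.0% of the 20 genes were called (1 had an unadjusted p under 0.05). The slope was −0.03 ± 0.09 log2 units per week for UCP (SE, 46 units, 95% interval −0.22 to 0.15, adjusted p = 0.760). For CPT-1 it was −0.13 ± 0.12 per week (40 units, interval −0.36 to 0.10, adjusted p = 0.641). Slopes were called for 0.0% of the 20 genes. The sign of the UCP slope was not fixed by the data: it was 0.026 without samples 3 to 6 of 6 weeks, 0.077 when each sample was centred on its panel median, and 0.11 in background-corrected scanner values centred in the same way.

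None of the 6 differences between ages passed for either gene, and 0.0% of the 120 pairwise tests of the panel did, with 8 at an unadjusted p under 0.05. For UCP the 12-week samples minus the 6-week samples gave −0.37 ± 0.57 (adjusted p = 0.865). For CPT-1 the same difference was −0.71 ± 0.72 (adjusted p = 0.826). The CPT-1 difference with the smallest p was 12 minus 8 weeks, at −1.36 ± 0.75 (95% interval −2.85 to 0.13, adjusted p = 0.660). In the scanner values centred on the panel median that difference was 0.12. The intervals leave room for differences of more than 1 log2 unit in either gene.

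The deposited values of both genes differed between samples of the 2 dyes, in opposite directions. For CPT-1 the scanner channels differed in the same direction in samples without the label, as described below. Its median there was 1543.5 in the Cy3 channel and 188.3 in the Cy5 channel. What part of the CPT-1 dye difference comes from such signal was not tested. UCP averaged 12.26 ± 1.10 in Cy5 samples (SD, n = 24) and 11.04 ± 1.13 in Cy3 samples (n = 23). With age in the fit, Cy5 minus Cy3 was 1.29 ± 0.40 for UCP (95% interval 0.48 to 2.09, adjusted p = 0.0139). CPT-1 averaged 8.39 ± 1.85 in Cy5 samples (n = 16) and 10.37 ± 1.83 in Cy3 samples (n = 24), and its difference was −1.84 ± 0.55 (interval −2.93 to −0.75, adjusted p = 0.0123). With the technical pair as 2 separate samples the differences were 1.22 for UCP and −1.84 for CPT-1 (adjusted p = 0.0179 and 0.0144). With no constant per sample, a scaling described below, they were 2.09 and −1.24 (adjusted p = 0.00074 and 0.0154). Without samples 3 to 6 of 6 weeks the differences were 1.27 for UCP and −1.86 for CPT-1 (adjusted p = 0.0222 each). The test called 4 of the 20 genes, or 20.0%. The others called were FAS, read here as fatty acid synthase, at 1.90, and the leptin receptor OBR at −1.25.

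The ranges of the 2 dyes still overlapped for each gene. UCP had a lowest value of 9.60, a median of 12.42 and a highest of 14.15 with Cy5, against 8.75, 10.90 and 12.83 with Cy3. CPT-1 had 5.51, 8.57 and 12.40 with Cy5, against 5.87, 10.43 and 13.11 with Cy3. The means of the dyes stood in this order at each of the 4 ages. At 6 weeks, for example, UCP averaged 12.33 ± 1.31 with Cy5 (n = 6) and 10.93 ± 1.23 with Cy3 (n = 5). At 12 weeks CPT-1 averaged 7.48 ± 1.07 with Cy5 and 9.90 ± 2.62 with Cy3 (n = 6 each).

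Dyes were not spread evenly over scans, since 1 of the 11 scans held 10 Cy5 samples and 1 Cy3 sample. With the scan as a block the dye difference was 1.07 for UCP and −1.21 for CPT-1, and neither passed (adjusted p = 0.166 each). Within scans that held both dyes, UCP was higher with Cy5 in 6 of 8, from −1.15 to 2.64. CPT-1 was lower with Cy5 in 5 of 7, from −3.32 to 1.71. Among samples above background alone the dye difference was 0.79 for UCP and −1.42 for CPT-1, and again neither passed (adjusted p = 0.276 and 0.286). Samples above background were 23 with Cy5 and 12 with Cy3 for UCP, and 2 and 15 for CPT-1. This choice of samples itself differs by dye, so it cannot decide whether the dye difference holds.

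Taken within each dye, the age course was no clearer. Among Cy5 samples the slope was −0.06 ± 0.16 per week for UCP and −0.12 ± 0.18 for CPT-1 (adjusted p = 0.875 and 0.820), with 0.0% of 20 genes called. Among Cy3 samples it was −0.01 ± 0.15 for UCP and −0.14 ± 0.14 for CPT-1 (adjusted p = 0.982 each), with 0.0% of 19 genes called. The F test over ages gave an adjusted p of 0.773 for UCP and 0.625 for CPT-1 in Cy5 samples, and 0.999 for both in Cy3 samples. It called 0.0% of the genes in either dye. The slope in Cy5 minus that in Cy3 was −0.05 ± 0.19 for UCP and 0.02 ± 0.23 for CPT-1 (adjusted p = 0.942 and 0.948, 0.0% of 20 genes called). This difference depended on the scaling: for CPT-1 it was 0.33 in scanner values, 0.22 with panel-median centring and 0.20 relative to beta-actin and Gapdh, and for UCP it was 0.17, 0.18 and 0.17 in that order, none of which passed. For CPT-1 no Cy5 sample of 10 or 12 weeks was above background, so at these ages its course with Cy5 rests on values that did not pass that criterion.

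Missing CPT-1 values fell on one dye. A value was deposited in 16 of 24 Cy5 samples and in all 24 Cy3 samples, a difference of −33.3 percentage points (two-sided permutation test, p = 0.00376, adjusted p = 0.0615). That missed the threshold, and 0.0% of the 20 genes passed, although 6 had an unadjusted p under 0.05. The background-subtracted intensity of CPT-1 was below 0 in 7 Cy5 samples and in 0 Cy3 samples. By the scanner criterion CPT-1 was above background in 2 of 24 Cy5 samples and in 15 of 24 Cy3 samples (permutation test, adjusted p = 0.0024). UCP ran the other way, with 23 of 24 Cy5 samples and 12 of 24 Cy3 samples above background (adjusted p = 0.0064). No other gene of the 20 passed by this criterion, the next being FAS (permutation test, adjusted p = 0.132). The 1 missing UCP value, in Cy3 sample 5 of 6 weeks, belonged to its lowest intensity of 62.5.

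Each sub-array was scanned in both channels, so the signal of a channel can be set against samples that did not carry its dye. UCP signal came with the label. In the Cy5 channel the intensity of UCP had a median of 9389 in the 24 samples with Cy5 (2758.5 to 52008.5), against 88.3 in the 24 samples without it (−4.5 to 4863.5). In the Cy3 channel it had a median of 3631 in samples with Cy3 (62.5 to 35829.5), against 65.8 in samples without it (−2153 to 305). Mean intensity differed by 14250 ± 2626 in the Cy5 channel and by 4871 ± 1464 in the Cy3 channel (difference ± SE, two-sided permutation tests, p = 1e-05 each, the smallest 100000 resamples can give; adjusted p = 2.86e-05 and 3.33e-05). In the Cy5 channel 1 sample without the label reached the range of those with it, and in the Cy3 channel 1 sample with the label lay within the range of those without it.

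CPT-1 signal was not shown to differ between samples with and without the label of a channel. In the Cy3 channel its intensity had a median of 1792 in samples with Cy3 (153 to 4485), against 1543.5 in samples without Cy3 (646.5 to 11114). In the Cy5 channel the median was 507.5 with Cy5 (−4234 to 3294), against 188.3 without it (73.5 to 1200.5). Mean intensity with minus without the label was 13.3 in the Cy3 channel (95% interval −972 to 999, adjusted p = 0.991) and 33.7 in the Cy5 channel (interval −561 to 629, adjusted p = 0.918; permutation tests). Single samples moved both values. Without Cy5 sample 11 of 6 weeks, whose Cy3-channel intensity was 11114, the Cy3 difference was 403 (interval −229 to 1036, permutation p = 0.218). Without Cy5 sample 6 of 6 weeks, at −4234 and one of the samples in doubt, the Cy5 difference was 231 (interval −240 to 702, permutation p = 0.338). The same tests over all samples called 85.0% of the 20 genes in the Cy5 channel and 60.0% in the Cy3 channel. CPT-1 was 1 of 3 genes that passed in neither, together with ACC and OB(Mus), the leptin probe.

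Counts above background showed the same pattern. Without the label, CPT-1 was above background in the Cy3 channel of 17 of 24 Cy5 samples and in the Cy5 channel of 6 of 24 Cy3 samples. UCP was so in 0 and 2 of 24. The blank and the corn probe, which serve as negative controls, were so in 0 samples in either channel. With the label, corn was above background in 1 Cy3 sample and the blank in 0 samples. The blank still had a deposited value in 12 samples, with a median of 8.56. Other probes had signal without label too. OBR, the other gene called lower in Cy5 samples, had the same counts of 17 and 6, the fourth Gapdh probe had 14 and 4, Pyr-kin 6 and 9, H-FABP 4 and 8, and the third Gapdh probe 7 and 0. What part of the deposited CPT-1 values comes from signal of this kind was not tested.

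**Figure D2:**
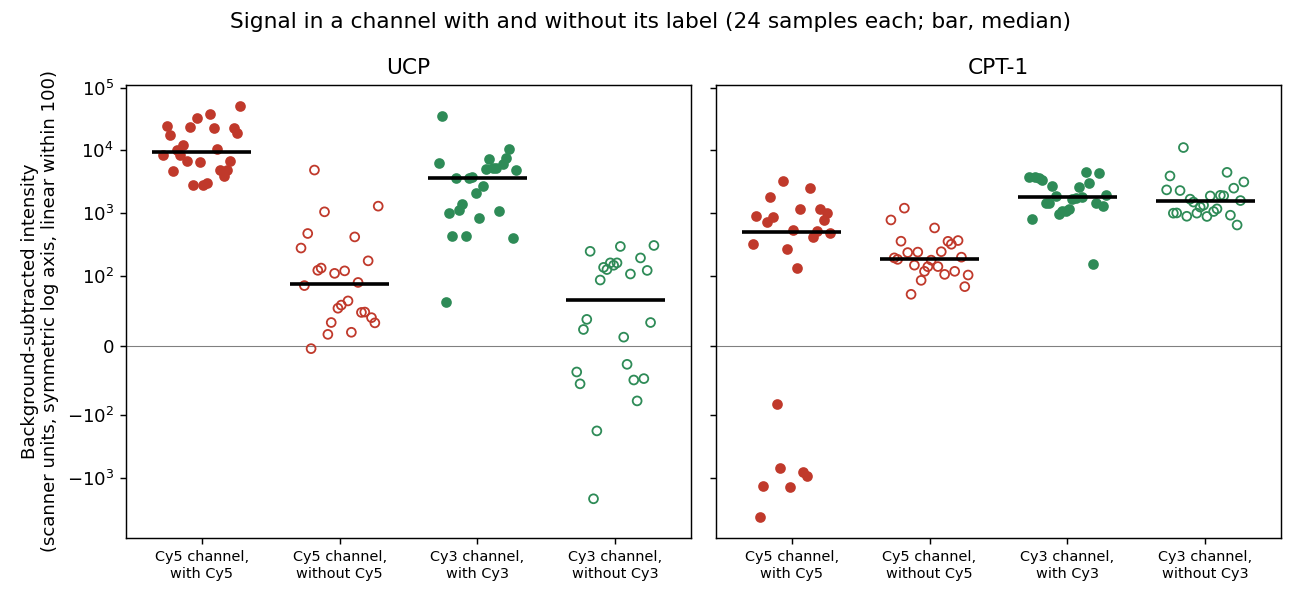
Background-subtracted scanner intensity of UCP (left) and CPT-1 (right) in the Cy5 and Cy3 channels, for 24 samples that carried the dye of the channel (filled) and 24 that did not (open), with medians as bars on a symmetric log axis. UCP is bright in labelled samples and near 0 in the others, whereas the 2 Cy3-channel sets of CPT-1 have medians of 1792 and 1543.5.

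The deposited values also carry a scaling per sample, and the 2 genes stood differently to it. In 25 of the 48 samples at least 60% of the probes equalled log2 of the background-subtracted intensity, averaged over both spots, minus 1 constant for the sample, within 0.02 log2 units. The constant, taken as the median over the probes of a sample, ran from −1.79 to 3.20. In the other samples fewer probes shared 1 constant, and there it is that median only. Its median was 0.74, 0.28, 0.71 and 2.11 at 6, 8, 10 and 12 weeks, and 1.0 in Cy5 samples against 0.08 in Cy3 samples. How the authors set it was not stated.

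Across samples the CPT-1 value followed the constant closely, with Pearson's r = −0.88 and Spearman's rho = −0.89 over 40 samples (permutation p = 1e-05 each, the smallest possible, adjusted p = 4e-05). Without the 2 samples whose constants lay farthest from the median, r was −0.87. Before the constant was subtracted CPT-1 intensity had r = −0.25 with it (rho = −0.26, 41 samples, permutation p = 0.114 and 0.104, adjusted p = 0.193 and 0.277), and −0.21 without the 2 farthest. Its SD over samples was 1.26 before and 2.07 after. Because the constant is subtracted, a gene whose intensity varies little follows it by construction.

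UCP showed the reverse. Its intensity before scaling had r = 0.64 and rho = 0.66 with the constant over 47 units (permutation p = 1e-05 each, adjusted p = 4e-05), and r = 0.61 without the 2 farthest samples. Its deposited value had r = −0.16 and rho = −0.16 (46 units, permutation p = 0.276 and 0.285, adjusted p = 0.368 and 0.450), and −0.17 without the 2 farthest. The SD of UCP was 1.95 before and 1.27 after the constant, while the median over the 20 genes was 1.80 before and 1.59 after. UCP thus became less variable with the scaling and CPT-1 more so. The 8 relations of this family were adjusted together. Those with the constant pooled both dyes with no dye term. Because the constant and both genes differ between the dyes, these relations hold that difference as well. The constant was computed from these same intensities, both genes included, and no other gene was set against it. The relations thus do not show a trait particular to UCP or CPT-1.

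**Figure D3:**
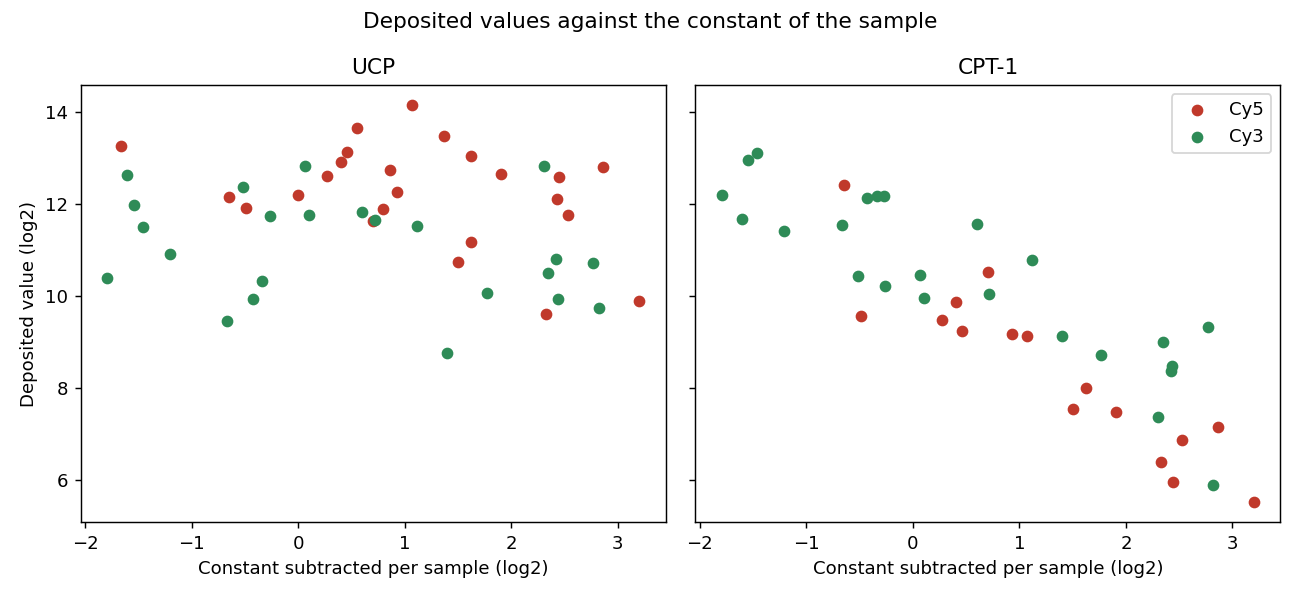
Deposited log2 value of UCP (left) and CPT-1 (right) against the constant subtracted from the sample, in log2 units, 1 point per sample, coloured by dye. CPT-1 values descend along the constant (r = −0.88) while UCP values do not follow it (r = −0.16).

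In the deposited values the 2 genes were not shown to vary together. Over the 39 samples with both values, r was 0.03 and rho 0.00 (permutation p = 0.861 and 0.980, adjusted p = 0.861 and 0.980), and r was 0.03 again without the 2 samples farthest from the UCP median. With the mean of each dye removed, r was 0.28 and rho 0.23 (permutation p = 0.0845 and 0.166, adjusted p = 0.193 and 0.333), and 0.21 without the 2 farthest. Among 16 Cy5 samples r was 0.40 and rho 0.26 (permutation p = 0.120 and 0.338, adjusted p = 0.193 and 0.450), and r was 0.02 without the 2 farthest, so that relation rested on those samples. Among 23 Cy3 samples r was 0.19 and rho 0.18 (permutation p = 0.383 and 0.402, adjusted p = 0.437 and 0.459), and 0.15 without the 2 farthest. When each sample was centred on its panel median, r was −0.48 over all samples (permutation, adjusted p = 0.00684) and −0.58 among Cy3 samples (adjusted p = 0.00758). In the same order rho was −0.54 and −0.47 (permutation, adjusted p = 0.00168 and 0.0504), so among Cy3 samples rho did not pass. Without the 2 farthest samples r was −0.56 and −0.45. With the same centring r was −0.28 with dye means removed and 0.06 among Cy5 samples, neither of which passed. Both deposited values carry the scaling of their sample, so r holds that shared part as well. With no constant, r was −0.39 over 41 samples (permutation, adjusted p = 0.0471, and 0.0541 for rho). With dye means also removed it was −0.18 and did not pass.

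Within a sample UCP usually had the higher value, and the gap depended on the dye. UCP exceeded CPT-1 in 30 of 39 samples, in 15 of 16 with Cy5 and in 15 of 23 with Cy3. UCP minus CPT-1 averaged 3.73 ± 1.75 in Cy5 samples (SD, from −0.25 to 6.64) and 0.75 ± 1.96 in Cy3 samples (from −2.21 to 5.47). The difference of 2.98 passed a two-sided permutation test (p = 3e-05). It combines the opposite dye differences of the 2 genes given above, in the same samples, so it is not a separate result. A constant per sample cancels in this gap, but only 25 of the 48 samples had at least 60% of their probes at 1 constant. In the other samples part of the scaling can remain in the gap. In background-corrected scanner values, without that scaling, the difference was 2.89 over 47 samples (permutation test, p = 1e-05). CPT-1 was above background in only 2 of the 24 Cy5 samples, so most gaps with Cy5 rest on a CPT-1 value that was not above background. Both genes were above background in 2 Cy5 and 7 Cy3 samples, where the difference between dyes was 0.99 and did not pass (permutation test, p = 0.469).

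By age the gap averaged 2.12 ± 2.82 at 6 weeks, 1.28 ± 2.69 at 8 weeks, 1.70 ± 1.56 at 10 weeks (SD, n = 9 each) and 2.58 ± 2.41 at 12 weeks (n = 12). With dye means removed, a permutation test over ages within dyes gave p = 0.826.

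**Figure D4:**
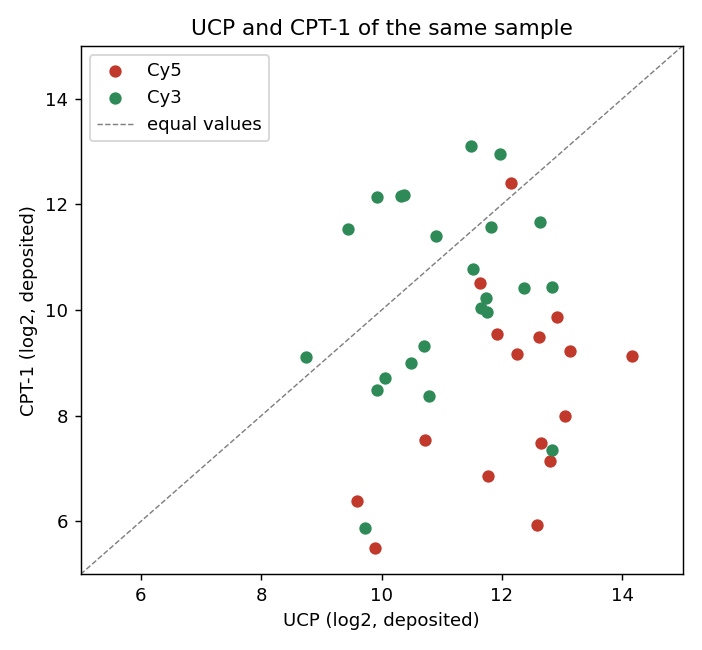
CPT-1 against UCP in the same sample, both as deposited log2 values, for 16 Cy5 and 23 Cy3 samples, with the line of equal values dashed. All but 1 of the Cy5 points lie below the line, and 15 of the 23 Cy3 points do.

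Likeness to other genes of the panel was described by Spearman's rho of deposited values with dye means removed, without a test. For UCP the 3 highest were FAS at 0.69 (39 units), the AMP-activated protein kinase subunit AMPKg3 at 0.57 (39 units) and Spot14a at 0.48 (40 units), against a median of 0.36 over the panel. Samples share their constant in these values. When each sample was centred on its panel median the same 3 genes led, at 0.56, 0.41 and 0.35, against a median of −0.10. For CPT-1 the 3 highest were Spot14b at 0.91 (16 units), lipoprotein lipase (LPL) at 0.87 (37 units) and growth hormone (GH) at 0.83 (22 units), against a median of 0.69. After centring they were Spot14b at 0.74, LPL at 0.30 and G-S-T at 0.23, against a median of 0.10. Spot14b was above background in 4 samples, LPL in 16, GH in 1, G-S-T in 9 and CPT-1 itself in 17. Most values behind the CPT-1 likeness were thus not above background.

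A list of 7 other genes was read beside both. It held ACC, which makes the malonyl-CoA that inhibits CPT-1, AMPKg2 and AMPKg3 of the kinase that phosphorylates ACC, the fatty acid binding proteins L-FABP and H-FABP, LPL, which frees fatty acids from lipoproteins, and OBR, and it did not hold FAS, whose dye difference of 1.90 was the highest of the panel. None of the 7 passed the F test or the slope test for age, and neither test called any of the 20 genes (0.0%). Their slopes had a median of −0.11 log2 units per week, from −0.25 to 0.08, against −0.10 over all 20 genes. In the dye test 0 of the 7 were higher and 1, OBR, was lower with Cy5, while 4 of the 20 genes (20.0%) were called in either direction. The list was thus not set apart from the panel by this count. Its median difference was 0.54, against 0.16 over all 20 genes.

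Of the hepatocyte markers on the panel, apolipoprotein B (Apo-B) had a value in 36 samples and was above background in 5, and L-FABP had a value in 37 and was above background in 13. H-FABP, best known from muscle and heart, had a value in 45 samples and was above background in 25, and LPL, which fat tissue makes in quantity, in 45 and 16. Probes differ in signal, so these counts do not rank the cell types. In tissue RNA fewer cells of a type and less RNA per cell cannot be told apart.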

How the data were processed

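The authors deposited log2 values of 32 probes per sample, with the code 10000 for no value, and the scanner output with the intensity of 64 spots (2 per probe) in both channels. Per the file headers the scanner output came from GenePix Pro 6.0.0.45 with no normalization. The scaling behind the log2 values was not stated. The scanner files do not name spots. Names rest on a match of values, in the order of the table's columns with Gapdh moved last, which gave a median r of 0.989 between scanner and table across the probes of a sample (lowest 0.769). The 48 samples were grouped by labelled age and dye, and 11 scans were told apart by the date and time in the file headers.

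The deposited log2 values were tested with limma's moderated statistics (limma 3.58.1, R 4.3.3) over all 20 genes, with 47 units after averaging the technical pair (48 samples in the fits within dyes and of the slope difference). Genes with missing values were fitted on the units with a value, and the pair's CPT-1 value is that of sample 8 alone. Permutation tests used 100000 resamples (Python 3.11.15, numpy 2.4.6, scipy 1.17.1), over all 48 samples for counts and channels. Figures used matplotlib 3.10.9. Intervals on intensities are normal intervals of the difference. The fits were tested on simulated data. Nothing in the labels says whether samples of an age shared a cage or a day, and p-values measure the spread between these samples. The number of arrays limits the precision.

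The genes and lists were chosen with earlier results of these data known. UCP and CPT-1 were named in full, the 7 fatty acid genes by counts and medians, and the 3 most alike genes by Spearman's rho over at least 12 units. The comparison of channels, the relations with the constant, the fits without a constant and those without single doubtful samples were chosen after seeing the data. Alternatives were scanner values corrected with normexp (offset 50), other centring, other units, blocks and samples.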

Additional observations from a re-analysis of the deposited data

Results flagged for a closer look

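CPT-1 was above local background in the channel without label in 17 of the 24 Cy5 samples and in 6 of the 24 Cy3 samples, while the blank and corn probes were so in 0. UCP was so in 2 of the 24 Cy3 samples. These signals lie outside the channel that holds the RNA of the sample.

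Among the Cy5 samples of 12 weeks, sample 5 had a CPT-1 value of 9.48, far from the other 5 samples, which lay between 6.38 and 7.54. Its intensity was 1147, it was not above background, and its constant of 0.27 was the lowest of the 6, against up to 2.86. It was the only far sample among 14 groups of 4 to 6 values tested. With that many groups, 1 far sample can arise by chance.

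In the series table of background-subtracted intensity, 45 of 48 columns equal the scanner file of their own sample, and the columns of samples 4, 5 and 6 of 6 weeks equal the files of samples 5, 6 and 3. The deposited log2 values of these samples matched their own scanner files within 0.02 for 95.2%, 66.7% and 23.1% of the probes.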

How the results depend on the processing

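Of 270 recomputed values other than those that leave out 1 sample, 217 kept their direction and their side of the threshold, or for a count of genes stayed close to it. No age test of either gene passed under any alternative run, a Kruskal-Wallis permutation test included, so every change of sign below is between values that did not pass, except in the covariation. The UCP slope per week was −0.03 in the deposited values and 0.11 in scanner values, 0.077 with panel-median centring, 0.030 relative to beta-actin and Gapdh, 0.026 without samples 3 to 6 of 6 weeks, 0.088 in scanner values without sample 3 of 6 weeks and 0.11 with no constant. The CPT-1 slope of −0.13 became 0.031 in samples above background and 0.0031 in scanner values without sample 3. For scanner values, panel-median centring and the beta-actin and Gapdh mean, in that order, the slope in Cy5 samples was 0.20, 0.16 and 0.11 for UCP and 0.16, 0.090 and 0.045 for CPT-1, and the slope difference between dyes for UCP was 0.17, 0.18 and 0.17. The UCP slope in Cy3 samples was 0.023 in scanner values, 0.050 with missing values at the lowest panel value and 0.044 without samples 3 to 6. For UCP, 12 minus 6 weeks was 0.69, 0.41 and 0.045 under the same 3 scalings, 0.13 without samples 3 to 6, 0.51 in scanner values without sample 3 and 0.54 with no constant. For CPT-1, 12 minus 6 weeks was 0.046 in scanner values, 1.02 in samples above background and 0.11 in scanner values without sample 3, and 12 minus 8 weeks was 0.12 in scanner values with and without that sample. The causes were not tested.

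The dye difference of UCP no longer passed with the sample number as a replicate block (1.27, adjusted p = 0.0876), with the scan as a block (1.07) or above background (0.79). That of CPT-1 no longer passed with the scan as a block (−1.21) or above background (−1.42). Samples above background were 23 with Cy5 and 12 with Cy3 for UCP, and 2 and 15 for CPT-1, so that setting cannot decide the dye difference. The number of genes called by dye was 2 with either block, 0 above background and 8 with no constant, against 4; with no constant the difference of UCP was 2.09. The block rests on a shared number alone: of 67 pairs of equal number at different ages 24 correlated above 0.1, with a median of −0.02, and 4 of 47 samples correlated best with their own number. Presence above background by dye passed where a deposited value did not, at 45.8 percentage points for UCP and −54.2 for CPT-1, and for no other gene of the panel. The dye effect on UCP minus CPT-1 was 0.99 above background. The correlation of UCP with CPT-1 over all samples was −0.29, −0.48 and −0.39 in scanner values, with panel-median centring and with no constant. Of these, −0.48 and −0.39 passed (permutation, adjusted p = 0.00684 and 0.0471). With dye means removed the correlation was −0.056, −0.28 and −0.18 in the same order. In Cy3 samples it was −0.44, −0.58 and −0.26, and in Cy5 samples it was −0.037 with no constant.

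Leaving out each sample in turn gave a dye difference of 1.17 to 1.40 for UCP and −2.12 to −1.57 for CPT-1, all of which passed, and 3 to 4 genes called. The slopes ran from −0.070 to 0.0021 for UCP and from −0.19 to −0.07 for CPT-1. The 12 minus 6 week difference ran from −0.60 to −0.14 for UCP and from −1.08 to −0.34 for CPT-1, and 12 minus 8 weeks from −1.83 to −0.88 for CPT-1. The adjusted p of the F test ran from 0.628 to 0.898 for UCP and from 0.306 to 0.888 for CPT-1. CPT-1 was not above background in most Cy5 samples, which limits every comparison that uses them.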
